A study of Mus musculus with 6 samples.

Results

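The E proteins and their ID inhibitors are 6 genes, Tcf3 (E2A), Tcf4 (E2-2) and Tcf12 (HEB) for the activators and Id1, Id2 and Id3 for the inhibitors. They were chosen by name, as every array probe whose only platform gene symbol is one of these. This gave 14 probes of 45281, and for each gene the probe that was brightest over the 6 arrays, by its mean log2 intensity, stands for it. All 6 genes were among the 11855 genes tested. Levels were measured on 1-colour Illumina bead arrays in B cells purified from the spleens of 8-week-old C57BL/6 mice. The 3 anti-IgM samples had been incubated with 2.5 µg/ml of goat antibody fragments against mouse IgM for 3 h, which cross-links the B cell antigen receptor, and 3 samples are labelled untreated. IL-4 at 5 ng/ml and CD40L at 200 ng/ml are also named in the protocols of every sample, without saying who received them. Effects of these agents and of anti-IgM therefore cannot be told apart if only the anti-IgM samples received them. Whether the replicates are separate mice, cultures or preparations is not in the labels, and the p-values cover only the spread seen between these samples, which may be technical.

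E proteins are basic helix-loop-helix transcription factors. They bind DNA as dimers at a short sequence called the E box, and they start and maintain the B cell programme. ID proteins have the helix-loop-helix that forms dimers but lack the basic stretch that touches DNA, so an E protein bound to an ID protein cannot bind its sites. In lymphocytes the balance between both kinds of protein, rather than the amount of either, is thought to set E box activity.

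Within groups, arrays correlated at r of 0.991 and 0.992 between replicates 2 and 3 and at 0.981 to 0.984 where a replicate 1 array was involved, so both replicate 1 arrays stood slightly apart. Across groups r lay between 0.898 and 0.912. Member values are therefore also given without both replicate 1 arrays. The median intensity of each array was 72.8, and a probe near it carries little signal, so folds of dim probes are compressed. Changes are differences of mean log2 intensity (anti-IgM minus untreated), and ± is the SE of the limma fit with 3 samples a group. The number of arrays limits the precision, and the median gene had an SE of 0.15. In bulk RNA, fewer cells of a type and less RNA per cell cannot be told apart.

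Anti-IgM samples had less Tcf3, Tcf4 and Id3 transcript and more Id2 transcript than untreated samples. Id3, an inhibitor, was 2.05-fold lower and Id2, an inhibitor of the same kind, 2.02-fold higher. Tcf4 and Tcf3, both E proteins, were 1.71-fold and 1.49-fold lower. Tcf12 and Id1 did not pass the test. At an adjusted p under 0.05 (limma, Benjamini-Hochberg over all genes tested) 4 of 6 members thus differed, 1 higher and 3 lower. Over all 11855 genes the same test called 47.1%, with 23.2% higher and 23.9% lower, so the count of members called is not read as particular to the family. The groups did not overlap in 5 of 6 members, where they did not overlap in 54.8% of all genes.

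**Figure D1:**
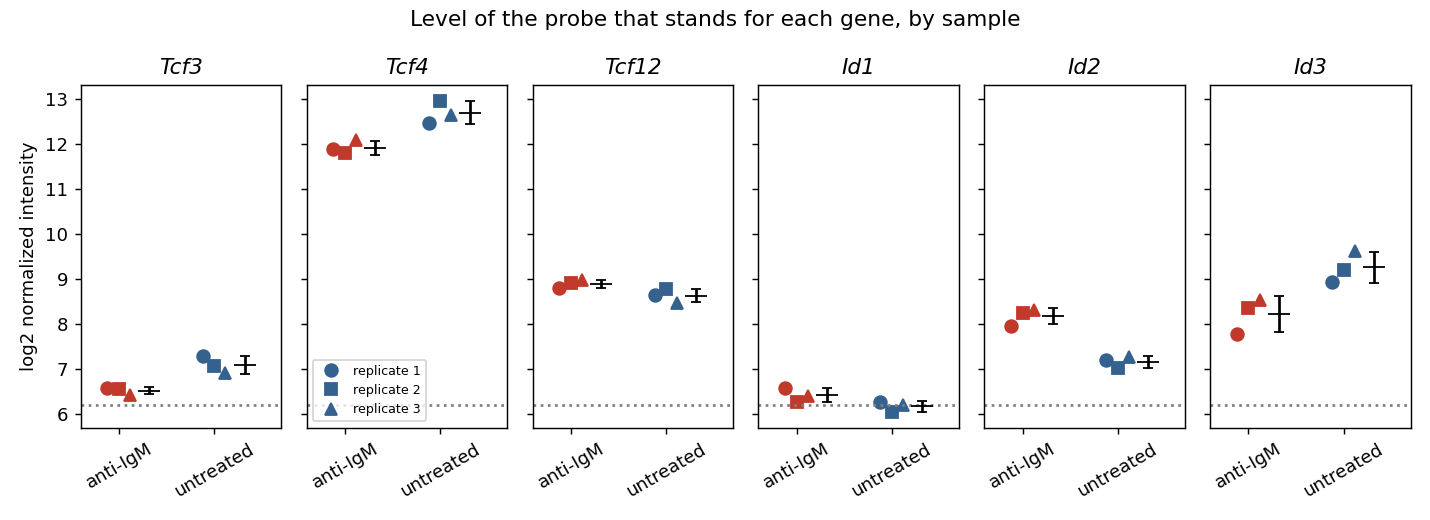
Log2 normalized intensity (y axis) of the probe that stands for each gene, for anti-IgM samples (red) and untreated samples (blue). Symbols are the replicate numbers, black bars the mean ± SD (n = 3) and the dotted line the array median. Levels of different genes come from different probes and are not comparable. The groups are apart in each gene but Id1, which lies around the array median.

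Tcf3 encodes the E12 and E47 proteins, splice forms that B lineage commitment depends on. Its brighter probe (ILMN_2596278) had intensities of 94.4, 93.5 and 85.5 in anti-IgM samples, against 155.7, 134.0 and 118.9 in untreated samples. Every anti-IgM sample was below every untreated sample. The log2 change was −0.57 ± 0.15 (adjusted p = 0.0091, limma), and −0.50 ± 0.19 without both replicate 1 arrays (adjusted p = 0.032, limma). The other Tcf3 probe (ILMN_2596277) had 66.4, 93.5 and 91.5 in anti-IgM samples, against 178.5, 112.2 and 148.8 in untreated samples. These groups did not overlap either, and the change was −0.80 ± 0.21 (adjusted p = 0.011, limma over all probes tested, which called 42.2%). It exceeded the array median on 2 of the 3 arrays of anti-IgM samples. Its fall differed between numbered pairs more than that of the brighter probe, with −1.43, −0.26 and −0.70 in pairs 1, 2 and 3, against −0.72, −0.52 and −0.48. Both probes read close to the array median with anti-IgM, so the fold can be understated. The platform annotation does not say which splice forms either probe reads.

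Tcf4 encodes E2-2, an E protein that also specifies plasmacytoid dendritic cells. Its brightest probe (ILMN_2636463) had 3747, 3525 and 4341 in anti-IgM samples, against 5666, 7976 and 6384 in untreated samples. The groups were apart, with far more signal than background in each sample. The change was −0.78 ± 0.13 (adjusted p = 0.00062, limma), and −0.87 ± 0.12 without both replicate 1 arrays. Within numbered pairs it was −0.60, −1.18 and −0.56. The other tested probe (ILMN_1225984) lay between 67.2 and 105.7 on the 6 arrays, around the array median, and did not pass (0.09 ± 0.17; adjusted p = 0.74, limma). The fall of Tcf4 thus rests on 1 probe, and with the mean of the tested probes in its place the change was −0.35 (adjusted p = 0.023, limma).

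Tcf12 encodes HEB, an E protein that pairs with the others and is best known in developing T cells. Its brightest probe (ILMN_2722602) had 440.5, 479.0 and 498.3 in anti-IgM samples, against 400.6, 435.4 and 352.9 in untreated samples. The anti-IgM samples were the higher ones without overlap, but the lowest of them exceeded the highest untreated sample by little. The change of 0.26 ± 0.13 did not pass the test (adjusted p = 0.14, limma; 95% interval −0.04 to 0.55). The second tested probe (ILMN_1258340) had 106.1, 66.2 and 82.2 in anti-IgM samples, against 135.8, 75.6 and 102.3 in untreated samples. Its change had the other sign and did not pass (−0.29 ± 0.23; adjusted p = 0.38, limma), and the mean of both tested probes changed by −0.02. No direction can be given for Tcf12.

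Among the inhibitors, Id2 restrains E proteins in many lymphoid cells and is required for innate lymphoid cells. Its brightest probe (ILMN_1236868) had 248.3, 302.8 and 314.2 in anti-IgM samples, against 146.4, 128.4 and 152.4 in untreated samples. Every anti-IgM sample was well above every untreated sample. The rise was 1.01 ± 0.16 (adjusted p = 0.00033, limma), and 1.14 ± 0.18 without both replicate 1 arrays. A second probe (ILMN_2887239) had 206.5, 237.6 and 255.8 in anti-IgM samples, against 104.1, 101.3 and 140.9 in untreated samples. It rose by 1.03 ± 0.18 (adjusted p = 0.0011, limma), nearly the size of the first.

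Id3 is an ID inhibitor of mature B and T cells and a target of antigen receptor signals in thymocytes. Its only probe (ILMN_2687169) had 217.7, 327.5 and 369.6 in anti-IgM samples, against 489.5, 585.0 and 788.8 in untreated samples. The SD of log2 intensity was 0.40 in anti-IgM samples and 0.35 in untreated samples, against 0.18 and 0.13 for Id2, with replicate 1 lowest in each group, and the groups did not overlap. The change was −1.03 ± 0.23 (adjusted p = 0.0030, limma), and −0.97 ± 0.15 without both replicate 1 arrays. Within numbered pairs the fall was of like size, at −1.17, −0.84 and −1.09.

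Id2 and Id3 moved in opposite directions by nearly the same amount. Within pairs 1, 2 and 3 as numbered, the Id2 change exceeded the Id3 change by 1.93, 2.07 and 2.14. The comparison was chosen after both changes were seen and is given as a description, with no test.

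Id1, the other inhibitor among the members, was near background. Its only probe (ILMN_2672190) had 94.7, 76.6 and 84.1 in anti-IgM samples, against 76.9, 65.6 and 72.6 in untreated samples. It read over 72.8 in 3 of 3 anti-IgM samples and in 1 of 3 untreated samples, and the groups overlapped. The change of 0.25 ± 0.13 did not pass the test (adjusted p = 0.16, limma; 95% interval −0.05 to 0.54). Folds at this level are compressed.

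The 4 probes that did not enter the test, 1 of Tcf4, 2 of Tcf12 and 1 of Id2, read between 46.2 and 81.3 on the 6 arrays. Their changes lay between −0.21 and 0.21. The third Id2 probe (ILMN_1228557) changed by 0.21, against 1.01 and 1.03 for the brighter ones, and stayed under the array median in every untreated sample. Of the 10 probes tested 6 were called, both of Tcf3, both of Id2, 1 of Tcf4 and that of Id3, where 42.2% of all probes tested were called.

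**Figure D2:**
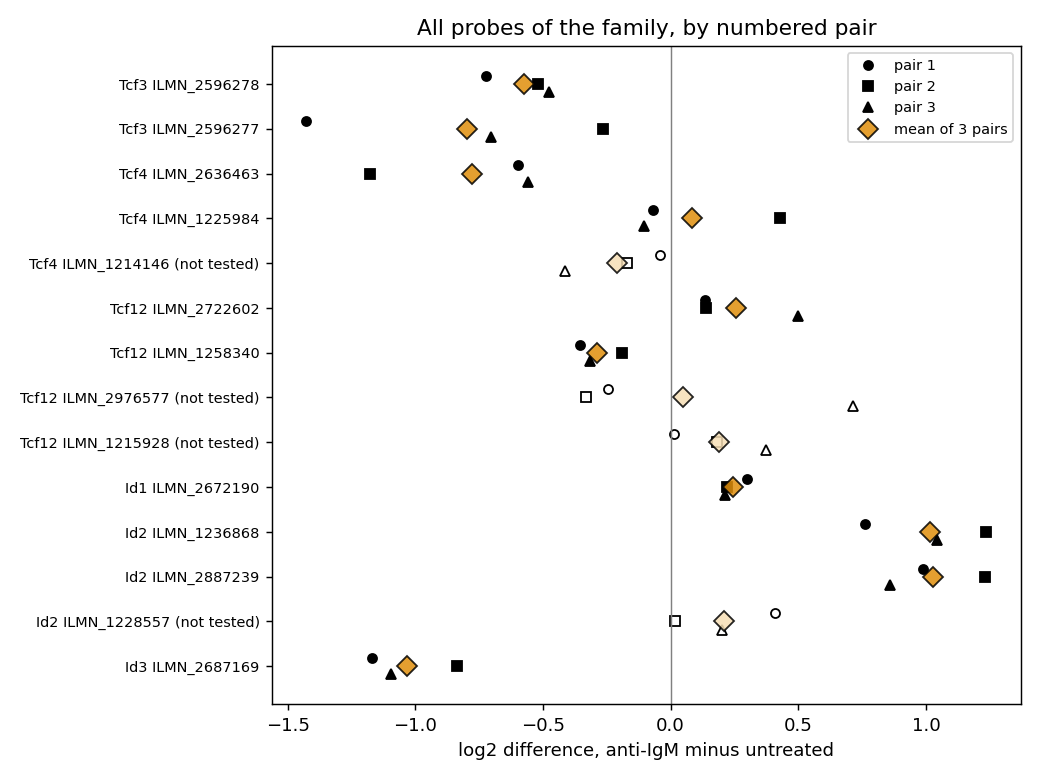
Log2 difference, anti-IgM minus untreated (x axis), of each of the 14 probes of the 6 genes (y axis). Black symbols are the 3 numbered pairs, diamonds their mean, and open symbols and pale diamonds mark the 4 probes not tested. Both tested Id2 probes lie near 1 and the Id3 probe near −1, while the tested probes of Tcf4 and of Tcf12 lie apart from each other.

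The sequence before the start of Tcf3, Id2 and Id3 is shown because these called members moved in different directions and may themselves carry E boxes. RefSeq's promoter table (GRCm38.p6) matched 4 of the 6 members, Tcf3, Tcf12, Id2 and Id3, with 6 starts. Each line gives the 250 bases before the listed start on the gene's strand, with matches to the E box CANNTG in capitals. The Tcf3 stretch is chr10:80433636-80433885 (minus strand), the Id2 stretch chr12:25096093-25096342 (minus strand) and the Id3 stretch chr4:136143572-136143821 (plus strand).
Tcf3: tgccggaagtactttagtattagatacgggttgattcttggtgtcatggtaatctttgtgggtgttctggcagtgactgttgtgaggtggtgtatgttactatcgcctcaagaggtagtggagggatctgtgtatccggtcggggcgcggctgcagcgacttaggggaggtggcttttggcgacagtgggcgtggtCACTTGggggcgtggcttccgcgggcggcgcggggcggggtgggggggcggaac
Id2: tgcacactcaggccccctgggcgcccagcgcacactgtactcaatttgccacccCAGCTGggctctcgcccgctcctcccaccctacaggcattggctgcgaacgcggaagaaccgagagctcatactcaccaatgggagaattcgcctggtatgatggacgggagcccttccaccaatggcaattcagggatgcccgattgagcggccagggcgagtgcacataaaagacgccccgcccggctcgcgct
Id3: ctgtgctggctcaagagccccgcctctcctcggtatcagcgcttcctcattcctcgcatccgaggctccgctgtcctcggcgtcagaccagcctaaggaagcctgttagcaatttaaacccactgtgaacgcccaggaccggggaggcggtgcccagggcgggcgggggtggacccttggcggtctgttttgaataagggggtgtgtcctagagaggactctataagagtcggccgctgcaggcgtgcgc

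The Id2 stretch held 1 E box, CAGCTG, 196 to 191 bases before the start. The same letters lay 240 to 235 bases before a start of Tcf12, which did not pass the test. Another Tcf12 start had CAAGTG, and the remaining start held 0 E boxes. Tcf3 held 1, with the letters CACTTG, 54 to 49 bases before the start. Id3 held 0. Of 32851 promoter windows of the same length 66.2% held CANNTG. Every motif was searched on both strands. The core CAGNTG, whose matches are all also CANNTG, was in the Id2 window and in 44.8% of all windows. An EGR motif, GCGNGGGCG, was in none of the 3 windows and in 4.7% of all, and the CArG box bound by SRF was in none of the 3 and in 1.47% of all. These are matches of letters and not binding sites.

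Genes known to be activated or bound by E proteins in B cells fell more often than they rose. Of 18 listed 16 were analysed here and 13 tested, and 7 fell, 2 rose and 4 did not pass. The median change was −0.42, also with Pax5 at its bound, against 0.02 over all genes, of which 23.9% fell and 23.2% rose. Foxo1, a transcription factor of early and resting B cells, had 509.7, 404.9 and 354.6 in anti-IgM samples, against 2134, 1778 and 2031 in untreated samples, and fell by 2.24 ± 0.15 on the log2 scale (adjusted p = 6.3e-07, limma). Vpreb3, a chaperone-like partner of the immunoglobulin light chain, fell by 2.05 ± 0.18 on the log2 scale (adjusted p = 4.2e-06, limma). Both were 3 of 3 samples lower without overlap. Smaller falls were those of the adaptor gene Blnk (−1.48 ± 0.12), the transcription factor gene Spib (−1.13 ± 0.12), the coactivator gene Pou2af1 (−0.99 ± 0.23) and Ebf1, a partner of E2A in B lineage commitment (−0.42 ± 0.11). Pax5, the B cell identity factor, stayed under the array median in every anti-IgM sample, which makes its fall a bound of at least 1.60-fold. Irf4, which drives activated B cells towards plasma cells, rose by 1.81 ± 0.12 and Cdkn1a, a cyclin-dependent kinase inhibitor, by 1.51 ± 0.15. The list was written from general knowledge of E protein targets, and most of its members answer to other factors too. Like the lists below, it was chosen with earlier results of these data known, so its counts are only a description.

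Transcripts of proteins that work with E proteins on DNA changed in both directions. Of 10 cofactors, all tested, 5 fell and 2 rose, with a median of −0.60, where 23.9% of all genes fell and 23.2% rose. Lmo2 and Ldb1, which bridge basic helix-loop-helix dimers in shared complexes, changed by −1.56 ± 0.15 and −0.999 ± 0.118. Cbfa2t3, a corepressor of the ETO family that binds E proteins, changed by −1.40 ± 0.18, with 218.2, 203.0 and 313.3 in anti-IgM samples, against 735.9, 577.4 and 605.2 in untreated samples. The acetyltransferase gene Ep300 changed by −1.31 ± 0.26. Kat2a, another acetyltransferase, rose by 0.82 ± 0.15 while its close relative Kat2b changed by −0.85 ± 0.16, with Kat2b over 72.8 in 2 of 3 anti-IgM samples. Lmo4, a LIM-only relative of Lmo2, rose by 1.12 ± 0.15.

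Genes listed as upstream of the ID genes rose more often than they fell. How each of them acts on the ID genes in these cells was not tested. Of 18 listed (EGR factors, SRF and its partners, and the BMP and TGF-beta pathway) 17 were analysed here and 14 tested. Of these 7 rose, 2 fell and 5 did not pass, with a median of 0.38, where 23.2% of all genes rose and 23.9% fell. Egr2, a zinc finger factor switched on by antigen receptors, had 12552, 10483 and 11683 in anti-IgM samples, against 3428, 3341 and 3394 in untreated samples, and rose by 1.77 ± 0.09 (adjusted p = 1.5e-07, limma). Smad3, a transducer of TGF-beta, rose by 1.16 ± 0.13. Egr3 rose by 0.78 ± 0.10, Srf by 0.93 ± 0.11 and the ligand gene Tgfb1 by 0.89 ± 0.13. Tgfbr2, the TGF-beta receptor chain that binds the ligand, changed by −1.04 ± 0.09, and Elk4, a partner of SRF, by −1.04 ± 0.12. Smad1 and Smad5, the transducers of BMP signals that induce Id1, did not pass (0.27 ± 0.23 and −0.24 ± 0.16).

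Among 8 genes of E and ID protein turnover 7 were tested, and 3 rose, none fell and 4 did not pass, with a median of 0.30. This share of called genes is close to the 47.1% of all genes. Stub1, a ubiquitin ligase, rose by 0.84 ± 0.12, Cops5, a subunit of the COP9 signalosome, by 0.74 ± 0.10, and Usp1, which removes ubiquitin from ID proteins in human cells, by 0.70 ± 0.14. Of 10 other helix-loop-helix genes of blood cells 4 were tested, and 1 rose and 1 fell, with a median of −0.14. Over all genes 23.2% rose and 23.9% fell, so this count is not read as particular to the list. Lyl1, a tissue-restricted partner of E proteins, had 694.1, 610.7 and 625.5 in anti-IgM samples, against 1440, 1718 and 1629 in untreated samples (−1.31 ± 0.11). Bhlhe40, a repressor of activated lymphocytes, rose by 0.63 ± 0.10. Id4, the remaining inhibitor of the family, read over 72.8 in 1 of 3 anti-IgM samples and in 0 of 3 untreated samples, and was not tested.

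**Figure D3:**
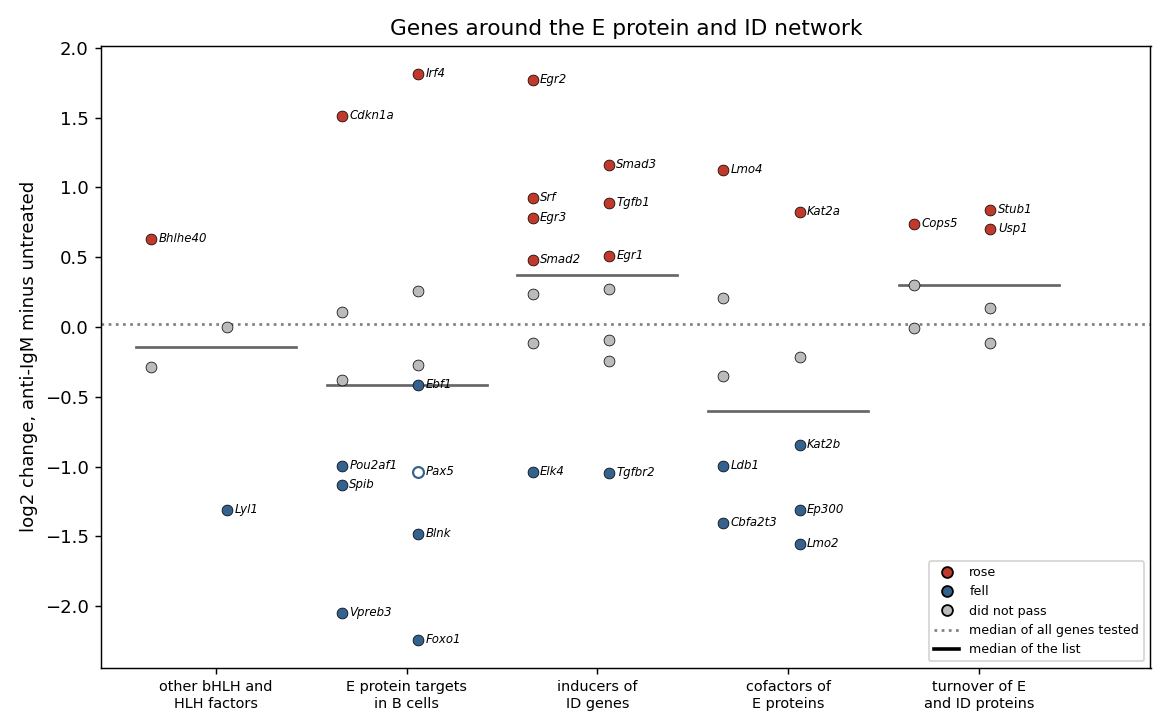
Log2 change, anti-IgM minus untreated (y axis), of the tested genes of 5 lists around the family (x axis). Red genes rose and blue genes fell at an adjusted p under 0.05, grey ones did not pass, and Pax5 is open because its fall is a bound. Solid lines are list medians and the dotted line the median of all genes tested. The targets and cofactors have medians of −0.42 and −0.60, and the genes listed as inducers of ID genes of 0.38.

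Other cell types express the members too, Id2 in natural killer and conventional dendritic cells and Tcf4 in plasmacytoid dendritic cells. The summed intensity of 5 natural killer markers, led by Prf1 and Nkg7, was 2300 to 4503 in anti-IgM samples and 1898 to 5702 in untreated samples, with 1 higher (Nkg7), 1 lower (Klrd1) and Ncr1 never above the array median. For 6 conventional dendritic cell markers, led by Cst3 and Zbtb46, it was 2295 to 3259 in anti-IgM samples and 4049 to 6424 in untreated samples, with Zbtb46 higher, Cst3 lower and Itgax never above the median. Xcr1, also called lower, stayed under the array median in every anti-IgM sample, so its fall is only a bound of at least 1.16-fold. For 5 plasmacytoid markers, led by Bst2 and Siglech, it was 902.3 to 948.0 in anti-IgM samples and 799.9 to 956.3 in untreated samples, with Bst2 higher and Ccr9 and Klk1 never above the median. This sum hides opposite patterns over the replicates. Siglech had 104.4, 177.0 and 299.7 in anti-IgM samples, against 112.8, 303.9 and 329.7 in untreated samples. Cox6a2 had 235.8, 88.6 and 76.8 in anti-IgM samples, against 347.9, 63.5 and 74.2 in untreated samples. T cell markers (8, led by Cd8b1 and Cd3d) summed to 1644 to 1959 in anti-IgM samples and 2199 to 2539 in untreated samples, with 1 lower (Cd8b1) and Cd8a never above the median. Most of each T cell sum was Cd8b1, while Cd3e, Cd3g and Cd4 read close to the median. Macrophage markers (6, led by Lyz2 and Adgre1) summed to 1228 to 2407 in anti-IgM samples and 1393 to 5660 in untreated samples, with Adgre1 lower and Itgam and Mertk never above the median. Neutrophil markers (5, led by S100a8 and S100a9, both lower) summed to 802.0 to 1019 in anti-IgM samples and 939.8 to 1872 in untreated samples. Plasma cell markers (5, led by Mzb1 and Xbp1) summed to 13342 to 14273 in anti-IgM samples and 28458 to 37863 in untreated samples, with Mzb1 and Sdc1 lower. Nearly all of each plasma cell sum was Mzb1 and Xbp1, while Prdm1 and Jchain read close to the array median. The B cell markers (5, led by Cd72 and Cd79b) were above the median on every array, and summed to 16031 to 20798 in anti-IgM samples and 42997 to 52103 in untreated samples, with 4 lower and Cd72 not called. Several markers also followed the replicate number. Among the leading markers, Prf1, Cst3, Siglech, Lyz2, Adgre1 and S100a8 were lowest in replicate 1 of both groups. Nkg7, Cd8b1, Cd3d, Xbp1 and Cd72 were highest there. Lyz2 had 859.0, 1275 and 1937 in anti-IgM samples, against 844.0, 3516.5 and 4926 in untreated samples. The part of these shifts in the changes of the members was not tested.

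The genes whose levels followed a member most closely were found by Pearson's r of log2 intensity over the 6 arrays. They were Skil (0.9990) and Coq8a (0.9970) for Tcf3, Zfand3 (0.9982) and Wdr76 (0.9950) for Tcf4, and Pign (0.9912) and Cluap1 (0.9879) for Tcf12. For the inhibitors they were Atg16l1 (0.9966) and Bag6 (0.9959) for Id1, Pacsin1 (0.9996) and Slc27a5 (0.9976) for Id2, and Btbd2 (0.9953) and Lst1 (0.9952) for Id3. The points share 2 groups of 3 arrays, so a gene that parts the groups can score high on that alone. Above 0.95 there were 946 genes for Id2, 398 for Tcf3, 241 for Tcf4, 124 for Id3, 58 for Id1 and 55 for Tcf12.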

How the data were processed

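RNA of 6 samples was read on 1-colour Illumina bead arrays. The authors deposited intensities already normalized between arrays, found from the values, since quantiles of the arrays nearly coincide. The sources used here do not give the method. Another table, with 6 columns whose names match no sample label, was not used. Intensities were taken as log2. A probe was tested when above its array's median on at least 3 of 6 arrays (23505 of 45281 probes, 11855 genes by their brightest probe). Gene names came from the platform annotation (34885 probes had 1 symbol, 18 several and 10378 were not listed), and 34807 matched RefSeq genes by Entrez ID. Groups came from the titles. The comparison used limma 3.58.1 in R 4.3.3 (lmFit, eBayes with an intensity trend, two-sided, Benjamini-Hochberg, threshold 0.05), tested on simulated data. Promoters and plots used Python 3.11.15 and matplotlib 3.10.9.

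The labels number the replicates 1 to 3 in both groups. Deviations from the group means correlated at 0.605, 0.274 and 0.318 for pairs 1, 2 and 3, each over 0.1, and the numbers were used as pairs. Mismatched arrays passed 0.1 too, so this cutoff cannot establish the pairing. Untreated replicate 2 with anti-IgM replicate 3 reached 0.387, and anti-IgM replicate 2 reached 0.108 with an untreated array of another number. Pairs 2 and 3 are thus not told from their exchange. A fit with this block was an alternative, beside other filters, scalings, background correction, probe averages and left-out arrays.

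The members and lists were chosen with earlier results of these data known. Named genes are the members, the 2 largest rises and falls among called genes of each list, the 2 brightest markers of each cell type and the 2 genes most like each member. Others belong to small counts or were singled out after their values were seen.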

Additional observations from a re-analysis of the deposited data

How the results depend on the processing

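Each member's call and direction was recomputed under 15 alternatives (14 for Id1, which was not tested when a probe had to be above the median of all 6 arrays). The only reversal was that of Tcf12, at −0.015 with the mean of tested probes in place of the brightest (adjusted p = 0.946, limma), and Tcf12 was called in neither. Otherwise directions and calls held, with ranges of −0.74 to −0.471 for Tcf3, −0.888 to −0.346 for Tcf4, 0.942 to 1.163 for Id2, −1.191 to −0.808 for Id3 and 0.165 to 0.36 for Id1. The lowest value of Tcf4 in size, −0.346, came from averaging its bright probe with a dim one. Over the alternatives the adjusted p (limma) reached at most 0.035 for Tcf3, 0.0234 for Tcf4, 0.00277 for Id2 and 0.0186 for Id3. With the replicate block, which pairs the numbered samples, 6397 genes were called (54.0%), against 5581 without it, and the block changed no call of a member. Without 1 array the count of called genes ranged between 4962 and 5517. List counts without both replicate 1 arrays and with the block, chosen after the data were seen, differed from those given by at most 1 gene. The deposited arrays nearly share their quantiles, so quantile normalization and 75th percentile scaling could change little. For the same reason the median change of all genes was bound to be small. It stayed between 0.01 and 0.03 under every alternative, which says nothing of a change in total RNA. Signal over background limits Id1, Tcf3 and the dim probes of Tcf4, Tcf12 and Id2.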
